A study of Sus scrofa with 9 samples.

Results

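The constitutive proteasome is the protein-degrading complex that every cell carries, and its subunit transcripts were followed here in the livers of diabetic and healthy pigs. Its genes were taken from the deposited count table by symbol, as those beginning with PSMA, PSMB, PSMC, PSMD, PSME, PSMF or PSMG and a number, without the interferon-induced PSMB8, PSMB9, PSMB10, PSME1 and PSME2. This gave 44 of the 29837 symbols in the table. RNA sequencing had been done on liver of 4 MIDY and 5 wild type (WT) females aged 2 years. MIDY, short for diabetes of youth caused by a mutant INS gene, names animals with an INS transgene that holds the C94Y change. The growth protocol states that diabetic animals were given short- and long-acting insulin, so genotype, diabetes and insulin treatment cannot be told apart. The WT pigs carry no transgene according to their genotype label, and founder line, litter and sampling day were not used here.

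Proteins marked with ubiquitin are unfolded and cut into peptides by the proteasome. The cutting is done inside the 20S core, a barrel of alpha rings, which form the gate, and beta rings, which hold the active sites. The 19S cap sits on the barrel: its base has a ring of ATPases that pull the substrate in, and its lid removes the ubiquitin chain. Dedicated chaperones put the rings together, and other activators can take the place of the cap. When proteasome activity falls short, mammalian cells raise the subunit genes together through the transcription factor NFE2L1, which sits in the endoplasmic reticulum until it is cut and released. In liver, this system removes short-lived enzymes and regulators and faulty secretory proteins.

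No tested constitutive proteasome gene passed the test for a difference between MIDY and WT liver. Of the 44 genes, 41 passed the filter on low counts and were tested, and 0 were called higher and 0 lower in MIDY at an adjusted p below 0.05 (edgeR quasi-likelihood test, Benjamini-Hochberg over 14100 genes). Over all genes tested, 1.17% were called, 0.816% higher and 0.355% lower, so that a count of 0 in 41 lies near the background and says little by itself. Only PSMD8 and PSME4, 2 genes, passed an unadjusted p below 0.05, both higher in MIDY, or 4.88% of the 41, where 16.1% of all genes tested passed (8.15% higher). DESeq2 also called 0 of the 41 and had the same 2 at an unadjusted p below 0.05. At an adjusted p below 0.05 it called 642 genes in all, 4.74% of those to which it gave an adjusted p. The groups did not overlap in 0 of the 41 genes, against 6.35% of all genes tested (3.72% with MIDY above WT and 2.63% with MIDY below). The fitted log2 fold changes ran from -0.28 for PSMA7 to 0.32 for PSMD8, with 21 above 0 and 20 below 0, and 49.3% of all genes tested lay above 0. Their median was 0.0018, beside -0.0046 over all genes tested.

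The precision was enough to bound most of these genes. For 36 of the 41, or 87.8%, the 95% interval of the fold change lay within 1.5-fold in either direction, against 63.0% of the 9566 other tested genes in the same range of mean CPM (counts scaled to a common library size with TMM factors). The 5 others were PSMB3, PSMB7, PSMD8, PSMG1 and PSMG2, and for all 41 the interval stayed within 2-fold. The median size of the log2 fold change was 0.09 among the proteasome genes and 0.15 among the other genes in that range of CPM. A fitted difference of more than 1.2-fold was seen in 4 of 41 (9.76%), PSMD8, PSME4, PSMA7 and PSMG2, and in 28.7% of the others. The spread between animals of 1 group was also a little smaller, with a median SD of 0.19 on the log2 scale against 0.22. These are descriptions of the 41 genes that passed the filter, and no test over the list was made. The other genes were not matched in level to the 41 within that range. What part this has in the gaps was not tested.

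**Figure D1:**
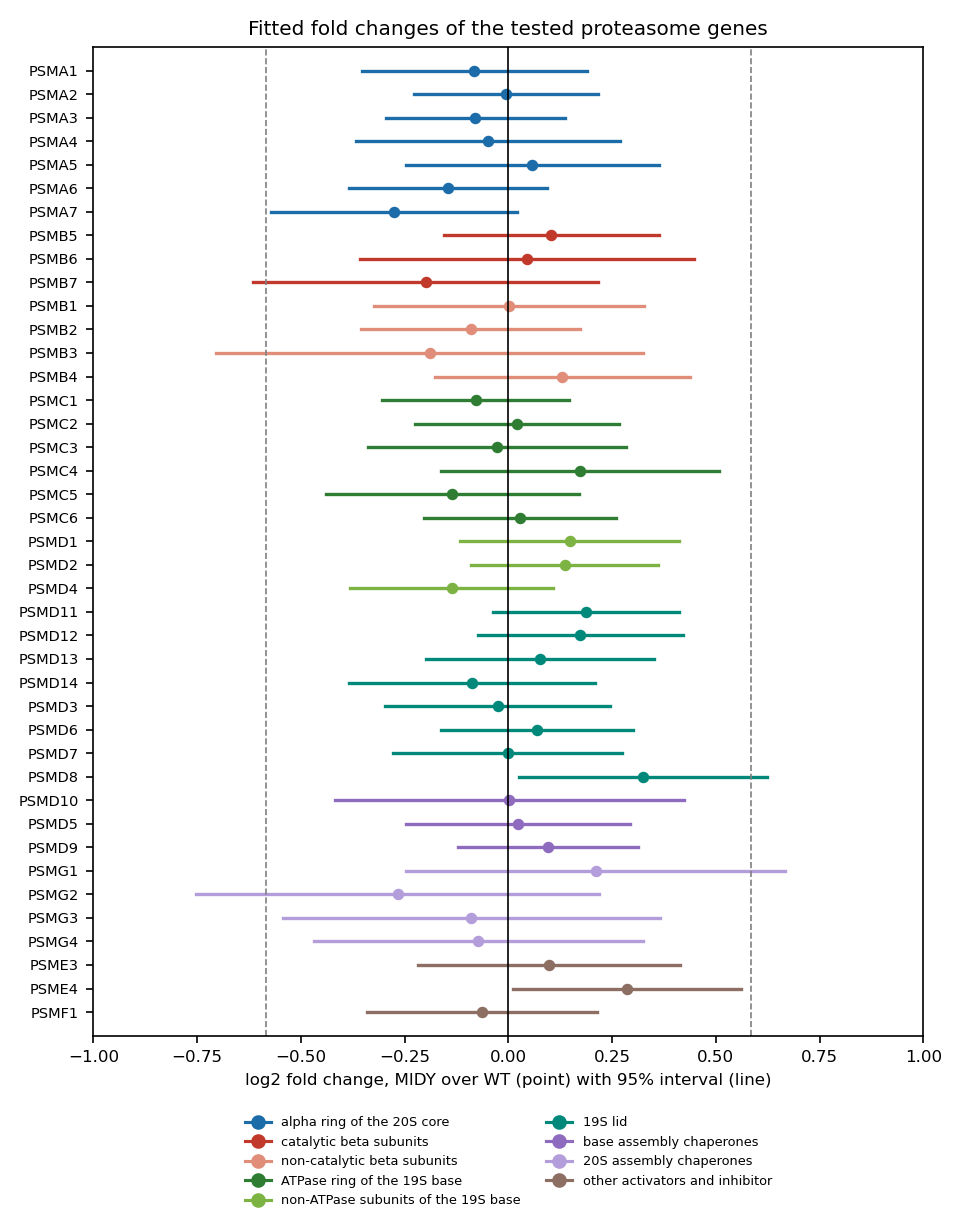
Fitted log2 fold change, MIDY over WT, of each of the 41 tested proteasome genes, in role order, with its 95% interval as a line; dashed lines mark 1.5-fold. The points lie between -0.28 and 0.32, and the intervals of 36 genes stay between the dashed lines.

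**Figure D2:**
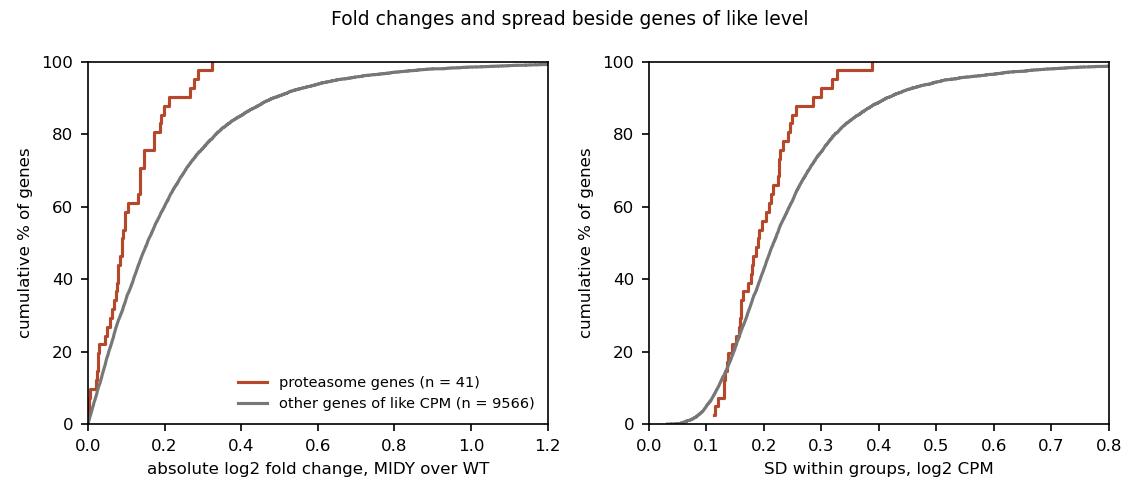
Cumulative share of genes by the size of the log2 fold change, MIDY over WT (left), and by the SD of log2 CPM within groups (right), for the 41 proteasome genes and the 9566 other tested genes in the same range of mean CPM. The proteasome curve lies to the left in the left panel, with medians of 0.09 and 0.15.

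The libraries held 14115415 to 19533463 counts, of which the proteasome genes took 0.139 to 0.164% in MIDY and 0.141 to 0.151% in WT. INS itself had 3 counts in MIDY and 2 in WT, all libraries together, which cannot check the genotype labels in liver. Hepatocyte markers such as ALB and APOA1 were abundant, with a summed level over 10 markers of 151694 to 183176 CPM in MIDY and 126554 to 183945 CPM in WT, and 0 of the 10 were called. Of the markers of other cells, the summed level of 8 tested lymphocyte markers was 51.8 to 65.2 CPM in MIDY and 71.9 to 125.9 CPM in WT, with no overlap and 1 of 8 called lower. That of 10 stellate cell and fibroblast markers was 458 to 559.5 CPM in MIDY and 527 to 777 CPM in WT, with 1 of 10 called lower. In sinusoidal and vascular endothelium (9 markers), macrophages (10), biliary epithelium (7) and erythroid cells (4 tested) 0 were called. Their median log2 fold changes were -0.15, -0.28, -0.51 and -1.10, with 3 of 9, 2 of 10, 1 of 7 and 0 of 4 fitted values above 0. In bulk liver, fewer cells of a type and less RNA per cell cannot be told apart. The share of the ribosomal RNA gene RN18S was 6.96 to 9.95% in MIDY and 8.18 to 11.4% in WT. WT replicate 3 had the highest share and the smallest scaling factor, 0.900.

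The alpha subunits form the outer rings of the core and the gate through which substrates enter. Of 7 tested alpha genes, 0 were called. The median log2 fold change was -0.08, with 1 fitted value above 0 and 6 below. PSMA7 had the lowest p among them. It measured 50.3, 45.3, 37.0 and 42.3 CPM in MIDY replicates 1 to 4 and 45.7, 47.6, 65.3, 60.0 and 46.0 CPM in WT replicates 1 to 5. WT replicates 3 and 4 lay above the other libraries, and the remaining WT values fell inside the MIDY range. Its log2 fold change was -0.28 ± 0.14 (SE; edgeR adjusted p = 0.346). PSMA7 lies on chromosome 17 (61566373 to 61571516, Sscrofa11.1), where the gene model of LSM14B overlaps it. Since the strand setting of the counting is not given in the sources used here, reads of the pair may not be told apart, and LSM14B had a fitted value of the other sign (0.36 ± 0.18 log2, SE; edgeR adjusted p = 0.337). PSMA6 measured 35.4, 31.8, 26.8 and 30.7 CPM in MIDY and 32.7, 35.9, 39.3, 31.5 and 32.8 CPM in WT. The groups overlapped, and MIDY replicate 3 was the lowest library (-0.15 ± 0.11 log2, SE; edgeR adjusted p = 0.555). PSMA1, PSMA2, PSMA3, PSMA4 and PSMA5 had fitted values between -0.08 and 0.06. PSMA8, the alpha subunit of the testis, had 0 counts in all 9 libraries, which allows at most 0.154 to 0.213 CPM per library.

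The active sites of the core sit on PSMB5, PSMB6 and PSMB7, which cut after hydrophobic, acidic and basic residues. None of the 3 was called, and each overlapped between the groups. PSMB5 measured 22.2, 25.1, 19.1 and 18.0 CPM in MIDY and 19.1, 21.6, 20.6, 18.7 and 18.1 CPM in WT. MIDY replicates 1 and 2 were the highest of the 9 libraries and MIDY replicate 4 the lowest, and the log2 fold change was 0.10 ± 0.12 (SE; edgeR adjusted p = 0.722). PSMB6 measured 44.1, 38.4, 29.5 and 25.2 CPM in MIDY and 32.3, 30.1, 45.8, 31.3 and 26.8 CPM in WT. WT replicate 3 and MIDY replicate 1 were the highest (0.045 ± 0.18 log2, SE; edgeR adjusted p = 0.935). PSMB7 measured 154, 111, 86.3 and 98.4 CPM in MIDY and 115, 111, 182, 128 and 111 CPM in WT. Again WT replicate 3 and MIDY replicate 1 stood highest, and the log2 fold change was -0.20 ± 0.19 (SE; edgeR adjusted p = 0.653). The 95% intervals of the fold change, 0.897 to 1.29 for PSMB5, 0.781 to 1.36 for PSMB6 and 0.653 to 1.16 for PSMB7, hold with all 9 libraries in the fit. With 1 library left out, the log2 value of PSMB7 ran from -0.39 (without MIDY replicate 1) to -0.045 (without WT replicate 3), that of PSMB6 from -0.099 to 0.19 and that of PSMB5 from 0.011 to 0.17, and none was called. PSMB5 lies on chromosome 7 (76014576 to 76021922), PSMB6 on chromosome 12 (52096009 to 52098164) and PSMB7 on chromosome 1 (265172257 to 265235389). PSMB11, the catalytic subunit of the thymus, lies near PSMB5 on chromosome 7 and had 1 count in all 9 libraries together.

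The other beta subunits complete the inner rings without an active site. Of PSMB1, PSMB2, PSMB3 and PSMB4, 0 were called, and the median log2 fold change was -0.04. PSMB4 measured 44.8, 34.1, 31.8 and 26.5 CPM in MIDY and 30.3, 36.9, 29.8, 30.4 and 29.1 CPM in WT. MIDY held both the highest and the lowest library (0.13 ± 0.14 log2, SE; edgeR adjusted p = 0.705). PSMB3 measured 11.4, 8.88, 5.58 and 5.30 CPM in MIDY and 6.95, 9.14, 11.4, 9.46 and 7.34 CPM in WT. It had the largest standard error of the tested beta genes (-0.19 ± 0.24 log2, SE; edgeR adjusted p = 0.745). PSMB1 and PSMB2 had fitted values of 0.0020 and -0.09.

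The 6 ATPases PSMC1 to PSMC6 form the unfolding ring at the foot of the cap. Again 0 were called, with 3 fitted values above 0 and 3 below and a median of -0.0034. PSMC4 measured 34.7, 25.9, 20.5 and 19.6 CPM in MIDY and 20.4, 22.7, 22.0, 23.3 and 23.1 CPM in WT. The WT values lay within 3 CPM of each other and inside the MIDY range, and MIDY replicate 1 was the highest library (0.17 ± 0.15 log2, SE; edgeR adjusted p = 0.625). PSMC5 measured 61.4, 57.3, 48.0 and 51.2 CPM in MIDY and 62.5, 49.6, 78.9, 52.3 and 56.0 CPM in WT. WT replicate 3 stood above the rest (-0.13 ± 0.14 log2, SE; edgeR adjusted p = 0.686). The gene model of FTSJ3 overlaps PSMC5 on chromosome 12 (0.04 ± 0.12 log2, SE; edgeR adjusted p = 0.903), so its counts are uncertain.

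PSMD1 and PSMD2 are the large scaffolds of the base, and PSMD4 is a receptor for ubiquitin chains. None was called, and the median log2 fold change of the 3 was 0.14. PSMD2 measured 97.02, 81.1, 75.4 and 74.9 CPM in MIDY and 73.4, 76.8, 75.7, 80.2 and 67.5 CPM in WT. MIDY replicates 1 and 2 were the highest, and the others lay among the WT values (0.14 ± 0.10 log2, SE; edgeR adjusted p = 0.560). PSMD4 measured 34.1, 30.9, 25.7 and 28.9 CPM in MIDY and 31.7, 34.5, 37.6, 30.6 and 29.7 CPM in WT. Its fitted value was below 0 (-0.14 ± 0.11 log2, SE; edgeR adjusted p = 0.597). PSMD1 had a fitted value of 0.15 ± 0.12 (log2, SE) and is overlapped by HTR2B, which had 22 counts in all.

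The lid holds PSMD14, the enzyme that cuts ubiquitin chains off the substrate, and 7 further subunits that frame it. Of these 8 genes 0 were called, with 5 fitted values above 0 and 3 below and a median of 0.07. PSMD8 had the largest fitted log2 fold change of the tested proteasome genes. It measured 23.9, 25.7, 20.4 and 15.8 CPM in MIDY and 17.1, 18.5, 17.0, 17.1 and 15.7 CPM in WT. MIDY replicates 1, 2 and 3 lay above every WT library, and MIDY replicate 4 lay among them. The log2 fold change was 0.32 ± 0.14 (SE; edgeR unadjusted p = 0.0352, adjusted p = 0.270), and the exact two-sided permutation p was 0.0635, where the smallest possible is 0.00794. It was 0.23 without MIDY replicate 2 (edgeR unadjusted p = 0.134) and 0.44 without MIDY replicate 4 (edgeR unadjusted p = 0.00270, adjusted p = 0.0875). The unadjusted p of PSMD8 also stayed below 0.05 without MIDY replicate 3 or WT replicate 2, but not without any other single library. PSMD11, which braces the lid against the ATPases, measured 77.3, 66.8, 61.2 and 58.2 CPM in MIDY and 54.9, 56.3, 63.4, 57.9 and 56.8 CPM in WT. The MIDY values were all above 4 of the 5 WT values, and WT replicate 3 lay among them (0.19 ± 0.10 log2, SE; edgeR adjusted p = 0.405). PSMD3, PSMD6, PSMD7, PSMD12, PSMD13 and PSMD14 had fitted values between -0.09 and 0.17. PSMD8 lies on chromosome 6 (47289891 to 47297059) and PSMD11 on chromosome 12 (42498711 to 42529853).

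PSMD5, PSMD9 and PSMD10 are chaperones that hold the ATPases while the base is built, and they leave before the cap is complete. None was called. PSMD9 measured 37.3, 40.2, 37.4 and 34.3 CPM in MIDY and 34.3, 31.9, 40.0, 32.3 and 36.1 CPM in WT. The groups overlapped over most of their range (0.10 ± 0.10 log2, SE; edgeR adjusted p = 0.688). PSMD5 measured 16.7, 15.5, 16.01 and 15.3 CPM in MIDY and 14.7, 18.8, 13.0, 14.4 and 17.1 CPM in WT. All MIDY values lay inside the WT range (0.02 ± 0.12 log2, SE; edgeR adjusted p = 0.952). PSMD10 had a fitted value of 0.0018 ± 0.19 (log2, SE).

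PSMG1 to PSMG4 pair up to assemble the alpha ring. They were the least counted of the tested proteasome genes, with group means of 3.03 to 4.85 CPM, and 0 of 4 were called. PSMG2 measured 3.43, 4.09, 2.90 and 3.04 CPM in MIDY and 3.34, 4.85, 2.55, 4.92 and 4.46 CPM in WT. MIDY values lay inside the WT range (-0.27 ± 0.22 log2, SE; edgeR adjusted p = 0.603), and the gene model of CEP76 overlaps it (0.24 ± 0.15 log2, SE; edgeR adjusted p = 0.466). PSMG1, its partner, measured 5.62, 5.00, 4.58 and 4.20 CPM in MIDY and 3.06, 5.20, 3.93, 3.15 and 5.48 CPM in WT. MIDY replicate 1 was the highest library, and the other MIDY values lay inside the WT range (0.21 ± 0.21 log2, SE; edgeR adjusted p = 0.670). The partners PSMG3 and PSMG4 had fitted values of -0.09 and -0.07.

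PSME4 and PSME3 are activators that cap the core without using ubiquitin, and PSMF1 was first described as an inhibitor of the core. None was called. PSME4 measured 105, 84.6, 134 and 98.3 CPM in MIDY and 90.4, 83.4, 78.7, 84.1 and 95.4 CPM in WT. MIDY replicates 1, 3 and 4 lay above every WT library, and MIDY replicate 2 lay among them. The log2 fold change was 0.29 ± 0.13 (SE; edgeR unadjusted p = 0.0428, adjusted p = 0.292; exact two-sided permutation p = 0.0635). Without MIDY replicate 3 it was 0.15 (edgeR unadjusted p = 0.208), and with total counts as the scaling it was 0.31 (edgeR unadjusted p = 0.0519). The edgeR unadjusted p stayed below 0.05 without MIDY replicate 2 or 4 or WT replicate 5, but not without any other single library. PSME3 measured 29.1, 21.0, 22.0 and 17.4 CPM in MIDY and 19.1, 24.3, 18.7, 20.6 and 21.6 CPM in WT. MIDY held its highest and its lowest library (0.10 ± 0.15 log2, SE; edgeR adjusted p = 0.799). PSMF1 had a fitted value of -0.06 ± 0.13 (log2, SE). PSMC3IP shares the symbol pattern but is a recombination protein and no proteasome subunit, and its 0 to 11 counts per library kept it out of the test.

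**Figure D3:**
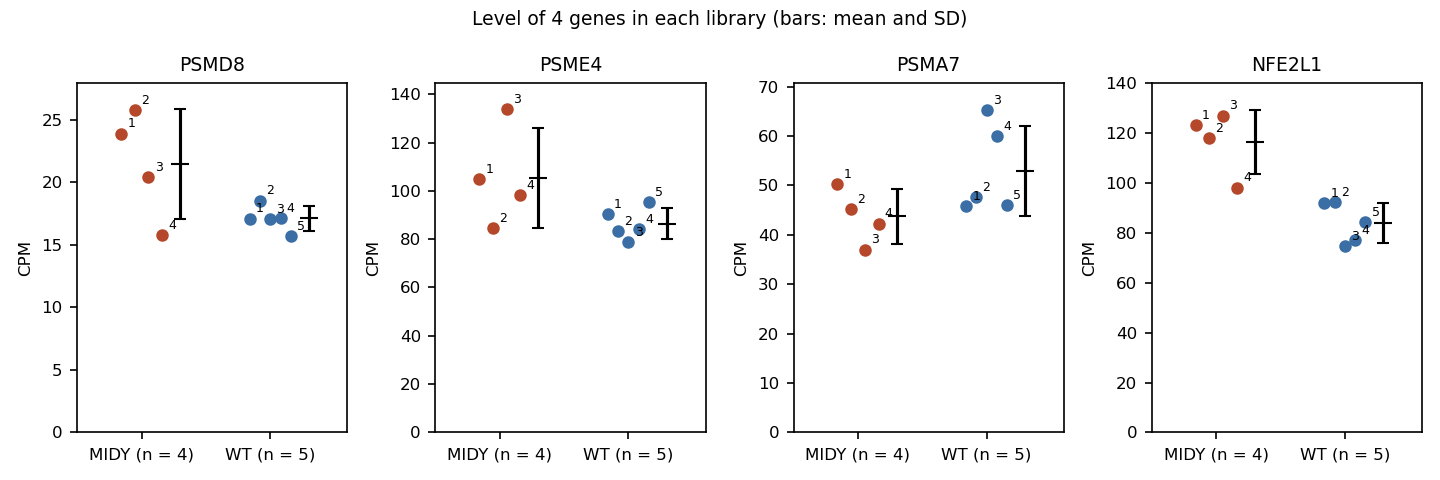
CPM in each library, labelled by replicate number, with mean and SD, of PSMD8, PSME4 and PSMA7, the tested proteasome genes with the lowest p, and of NFE2L1. In PSMD8 and PSME4, 3 of 4 MIDY libraries lie above all WT libraries, and in NFE2L1 all 4 do.

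MIDY replicate 1 was the highest of all 9 libraries in 21 of 41 genes (51.2%) and the lowest in 0. It was the highest in 15.8% of the other genes in the same range of mean CPM. It lay above the mean of the 9 libraries in 39 of 41, with a median deviation of 0.26 on the log2 scale. At the other end, MIDY replicate 4 was the lowest of the 9 in 13 genes (31.7%, against 11.06% of the other genes) and had a median deviation of -0.16. The medians of the WT libraries were between -0.07 and 0.09. WT replicate 3 was the highest in 11 genes (26.8%) and the lowest in 6 (14.6%). Of the other genes, it was the highest in 16.2% and the lowest in 18.3%. The libraries were singled out after their values were seen, and the shared pull on the genes was not tested. The deviation of MIDY replicate 1 was 0.22 for the CCT chaperonin genes, 0.18 for p97 and its cofactors, 0.12 for the COP9 signalosome and 0.11 for eIF3, and 0.03 over all genes in the same range of CPM. It was 0.05 for atrophy-linked ligases and FOXO factors, 0.03 for NFE2L1 release and its partners, and -0.14 for the interferon-induced subunits. Without MIDY replicate 1 the median log2 fold change of the proteasome genes was -0.10, with 10 of 41 above 0, and 0 were called. The median over all genes tested was then -0.013. PSMA7 and PSMB7 were then the 2 at an unadjusted p below 0.05, both lower in MIDY. They are 4.88% of the 41, where 15.6% of all genes tested passed in that fit.

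**Figure D4:**
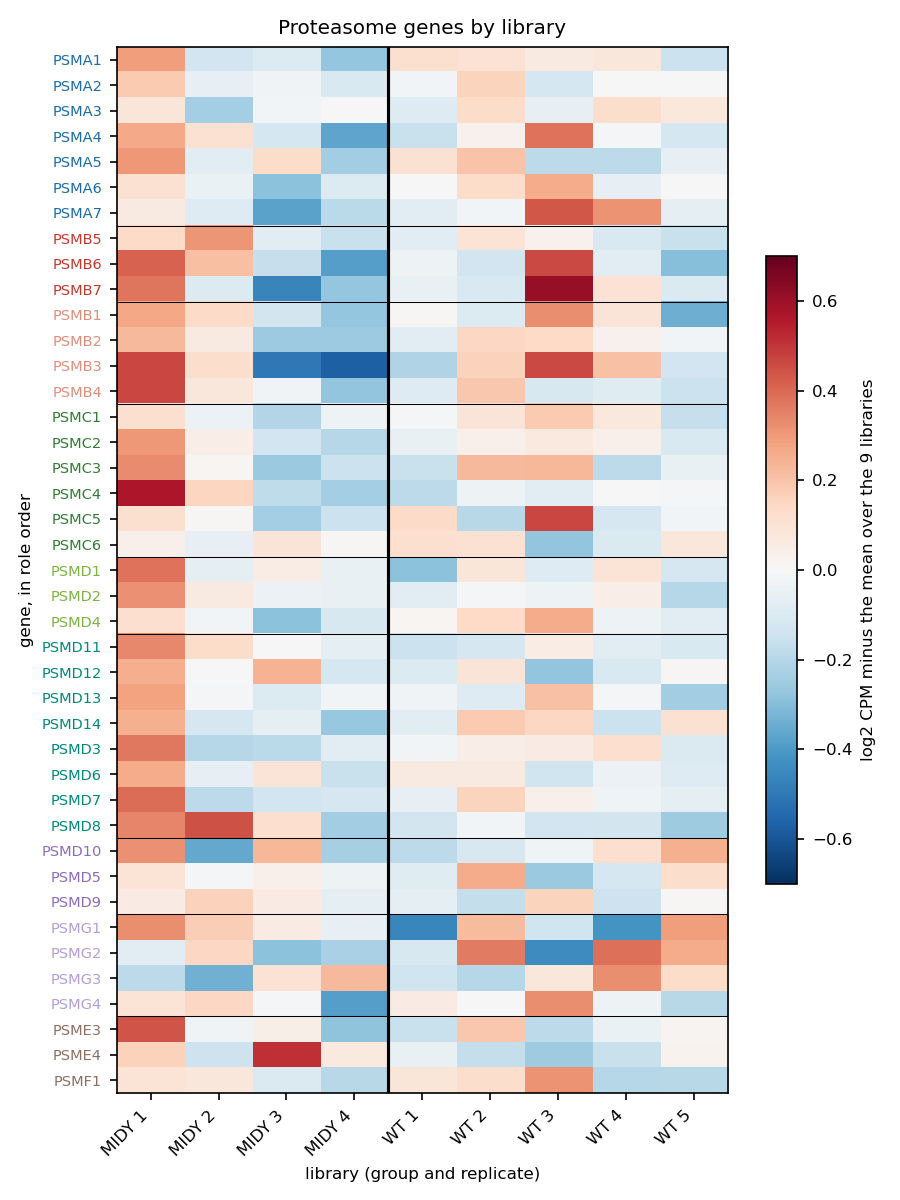
Log2 CPM of each tested proteasome gene (rows, in role order) in each library (columns), as the difference from the mean over the 9 libraries. MIDY replicate 1 is above the mean in 39 of 41 genes, and the median deviations of MIDY replicates 3 and 4 are -0.08 and -0.16.

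Transcripts of the core and of the cap were set against each other within each animal, a difference that the library scaling hardly touches. Over 14 core and 17 cap genes, the mean log2 CPM of the cap less that of the core was 0.26, 0.23, 0.34 and 0.37 in MIDY replicates 1 to 4 and 0.23, 0.22, 0.09, 0.18 and 0.27 in WT replicates 1 to 5. The averages were 0.30 ± 0.07 in MIDY (SD, n = 4) and 0.20 ± 0.07 in WT (SD, n = 5). The groups overlapped: MIDY replicates 1 and 2 lay below WT replicate 5, MIDY replicate 2 also lay just below WT replicate 1, and WT replicate 3 was the lowest. The core genes alone averaged 4.94 ± 0.23 log2 CPM in MIDY and 5.00 ± 0.12 in WT, and the cap genes 5.24 ± 0.18 in MIDY and 5.19 ± 0.06 in WT (SD, n = 4 and 5). Since the genes differ in length, only differences between animals can be read from these means. The libraries ranked almost alike in both sets within each group: the MIDY ranks were the same, and in WT replicates 2 and 3 changed places. WT replicate 3, the library that set the low end of the difference, is the one with the highest share of RN18S, and what part that has in it was not tested.

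**Figure D5:**
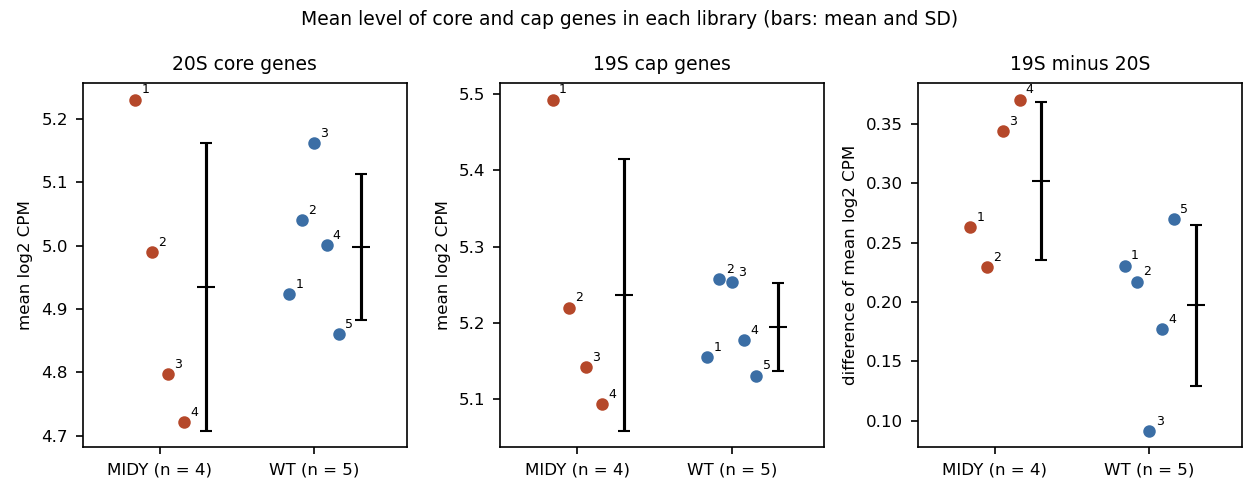
Mean log2 CPM of the 14 tested core genes and the 17 tested cap genes, and the cap less the core, in each library (points with replicate numbers) with mean and SD. MIDY replicate 1 is the highest library in both sets, and the difference of 0.23 to 0.37 in MIDY overlaps the 0.09 to 0.27 of WT.

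The interferon-induced subunits PSMB8, PSMB9 and PSMB10 replace PSMB5, PSMB6 and PSMB7 in the immunoproteasome. Of these and the activator genes PSME1 and PSME2, 0 of 5 were called, beside 1.17% of all genes tested. All 5 fitted values were below 0, with a median of -0.46. PSMB10 and PSME2 had an edgeR unadjusted p below 0.05, where 8% of all genes tested passed and were lower. The log2 ratio of PSMB5 to PSMB8 was 2.32, 1.95, 1.74 and 1.81 in MIDY and 1.71, 1.02, 1.22, 1.88 and 1.33 in WT. MIDY lay higher on average by 0.52, but the groups overlapped (exact two-sided permutation p = 0.0635, adjusted p = 0.190 over 3 pairs). For PSMB6 to PSMB9 the ratio was higher in MIDY by 0.53, and for PSMB7 to PSMB10 by 0.22 (exact permutation p = 0.127 and 0.508, adjusted p = 0.190 and 0.508). WT replicate 2 had the lowest ratio in all 3 pairs, and it had the highest summed level of lymphocyte markers, 125.9 CPM. It also had the highest summed level of stellate cell and fibroblast markers, 777 CPM, and the lowest of hepatocyte markers, 126554 CPM. ALB alone made 76644 CPM of that hepatocyte sum. By the median deviation of the hepatocyte markers on the log2 scale, MIDY replicate 4 was lower (-0.19) than WT replicate 2 (-0.09). Without WT replicate 2 the differences were 0.42, 0.28 and 0.04 (exact permutation adjusted p = 0.257, 0.257 and 0.943). Other left-out libraries moved the ratios as well. PSMB7 to PSMB10 differed by 0.013 without MIDY replicate 1 (exact permutation adjusted p = 0.964). PSMB6 to PSMB9 differed by 0.68 without WT replicate 3, and PSMB5 to PSMB8 by 0.64 without WT replicate 4. In both cases the groups then did not overlap. The exact permutation p was 0.0286 for both (adjusted p = 0.0857). That p is the smallest this two-sided test can give with 4 animals in each group. The lower lymphocyte marker levels of MIDY stand beside these ratios. So do the stellate cell and fibroblast levels, which were lower on average but overlapped, and the other non-hepatocyte marker lists with medians below 0. The hepatocyte list also had a median log2 fold change below 0 (-0.08), with 5 of 10 fitted values above 0. The part of any of these cell types in the ratios was not tested.

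NFE2L1, the factor that raises proteasome genes when activity is short, was higher in every MIDY library than in any WT library but was not called. It measured 123, 118, 127 and 98.2 CPM in MIDY and 91.8, 92.3, 74.9, 77.0 and 84.3 CPM in WT. The log2 fold change was 0.47 ± 0.11, a fold of 1.39 with a 95% interval of 1.18 to 1.63 (SE; edgeR unadjusted p = 0.000873, adjusted p = 0.0583). It was called without MIDY replicate 4 (adjusted p = 0.0333), by DESeq2 (adjusted p = 0.00463) and by limma voom (adjusted p = 0.0371), while the proteasome genes had 0 calls in each of these. With any other single library left out NFE2L1 was not called. The edgeR adjusted p then ran from 0.0555 (without WT replicate 1) to 0.172 (without MIDY replicate 3). Of 15 tested genes of NFE2L1 release and its partners 0 were called, beside 1.17% of all genes tested. BACH1, a repressor that binds the same DNA elements, had a log2 value of 0.42 ± 0.14 (SE; edgeR adjusted p = 0.164), and NFE2L2, the related factor of oxidative stress, one of -0.02 ± 0.10 (edgeR adjusted p = 0.937). MIDY replicate 1, the highest library for the proteasome genes, had 123 CPM of NFE2L1, below MIDY replicate 3 only. MIDY replicate 4, with the lowest median deviation of the proteasome genes, had 98.2 CPM, the lowest of the MIDY libraries. A relation between the levels of NFE2L1 and of the proteasome genes was not tested.

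Genes that work beside the constitutive subunits were not called. POMP, the maturation factor of the core, measured 41.1, 32.1, 29.9 and 31.7 CPM in MIDY and 31.8, 32.7, 34.3, 30.2 and 31.1 CPM in WT. MIDY replicate 1 was again the highest library (0.07 ± 0.11 log2, SE; edgeR adjusted p = 0.799). Of 14 tested proteasome-bound and assembly proteins 0 were called, and 11 fitted values were above 0. Over all genes tested, 1.17% were called and 49.3% lay above 0. The ubiquitin receptor ADRM1 (0.13 ± 0.19), the small cap subunit SEM1 (-0.09 ± 0.13) and the chain-trimming enzymes USP14 (0.15 ± 0.11) and UCHL5 (0.15 ± 0.13 log2, SE) belong to the cap but have other symbols (edgeR adjusted p of 0.563 to 0.792). Named after their values were seen, the ubiquitin ligase UBE3C (0.46 ± 0.14) and ZFAND2A (0.62 ± 0.21 log2, SE) had the lowest p of that list (edgeR adjusted p = 0.127 and 0.183).

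No gene of the upstream and downstream lists was called either. Over all genes tested 1.17% were called, so 0 calls in lists this short, here and in the other large complexes below, say little. Among 7 ubiquitin shuttle receptors, 16 genes of p97, which pulls ubiquitinated proteins apart, and its cofactors, 6 ubiquitin and E1 genes, 28 E2 enzymes, 11 atrophy-linked ligases and FOXO factors and 13 peptidases that trim proteasome products, 0 were called higher and 0 lower. Their median log2 fold changes were -0.07, 0.11, -0.0051, 0.06, 0.15 and 0.05. At an unadjusted p below 0.05 the shuttle list had 1 higher, the p97 list 3 higher and 1 lower, the E2 list 1 higher, the ligase and FOXO list 2 higher and the peptidases 2 higher, beside 8.15% higher and 8% lower over all genes tested. UBXN2A, a p97 cofactor named after its values were seen, measured 24.5, 25.5, 30.1 and 28.6 CPM in MIDY and 19.5, 22.7, 18.2, 19.1 and 21.4 CPM in WT. The groups did not overlap (0.43 ± 0.11 log2, SE; edgeR adjusted p = 0.0796). Of the other large complexes, 0 of 10 COP9 signalosome, 0 of 12 eIF3 and 0 of 8 CCT chaperonin genes were called, with medians of 0.028, -0.015 and -0.0078. EIF3E, an eIF3 subunit named after its values were seen, averaged 115 ± 14.4 CPM in MIDY (SD, n = 4) and 151 ± 22.5 CPM in WT (SD, n = 5), with every MIDY library below every WT library. Its log2 fold change was -0.39 ± 0.13 (SE; edgeR unadjusted p = 0.00997, adjusted p = 0.168).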

How the data were processed

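Liver RNA of 9 pigs, 4 MIDY and 5 WT, was sequenced after ribosomal depletion, per the labels. The file that the authors deposited holds unnormalized counts by gene symbol, made with STAR and HTSeq on Sscrofa11.1, per the submitters' processing notes; DESeq2 is also named there. Versions, annotation release and strand setting: not given in the sources used here. Libraries are separate animals. All 44 symbols were found in RefSeq's Sscrofa11.1 gene list, the source of positions; 10 overlap another gene model, which makes their counts uncertain, as do near-identical copies. No transcript lengths or sequences were used, so levels of different genes are not compared.

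The count test was edgeR 4.0.16 under R 4.3.3 (filterByExpr, TMM, robust quasi-likelihood), which kept 14100 genes with 99.9% of counts; p-values are two-sided and adjusted over all genes tested, with calls below 0.05. The step was tested on simulated data whose planted changes were larger than any fitted for the proteasome genes. That run does not show how well differences as small as theirs are found. Standard errors are the fold change over the square root of F, and 95% intervals use its degrees of freedom. Log2 CPM has 0.5 CPM added, and exact permutation tests of single genes use its group means. Values were given in every library for PSMB5, PSMB6, PSMB7 and for the 2 genes with the lowest p of each role. The genes and lists were chosen with earlier results of these data known. Intervals and the within-library ratios (0.5 counts added) were chosen after seeing the data. Alternatives were RLE factors, total counts, other filters, DESeq2 1.42.0, limma 3.58.1 voom with sample weights, and left-out libraries. Counting intervals, such as the limit of 3 counts for a gene at 0, cover counting error only.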

Additional observations from a re-analysis of the deposited data

Results flagged for a closer look

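Single libraries stood far from the rest of their group in 5 of 86 gene and group combinations examined, where chance flags about 1 in 20. PSMD7, a lid subunit, had 61.9 CPM in MIDY replicate 1, against 41.3 to 43.4 CPM in the other MIDY libraries. In WT, the catalytic subunit genes PSMB6 and PSMB7 had 45.8 and 182 CPM in replicate 3, against 26.8 to 32.3 CPM and 111 to 128 CPM in the other WT libraries. PSMB4 had 36.9 CPM in WT replicate 2, against 29.1 to 30.4 CPM in the others. PSMA1 had 21.7 CPM in WT replicate 5, against 25.3 to 26.2 CPM in the others.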

How the results depend on the processing

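In all 16 alternatives 0 of the tested proteasome genes were called in either direction. Left-out libraries moved the median log2 fold change between -0.10 (without MIDY replicate 1) and 0.04, and the number at an unadjusted p below 0.05 between 0 and 3 higher and 0 and 2 lower. With 1 library left out, 12.5 to 17.3% of all genes tested passed that unadjusted threshold. With voom 1 was lower, and without WT replicates 1 and 2 together 0 were higher and 1 lower. Of 336 single-gene values, 321 kept their direction and side of the threshold, 3 (all NFE2L1) became called and 12 changed sign. PSMB6 was -0.019 without WT replicates 1 and 2. With 1 library left out, values ran from -0.024 to 0.23 for PSMB4, -0.099 to 0.19 for PSMB6, -0.021 to 0.27 for PSMC4, -0.036 to 0.10 for PSMD5, -0.055 to 0.19 for PSME3 and -0.036 to 0.13 for POMP; none was called and the cause was not tested. No paired analysis was possible because the labels give no replicate number that both groups share. The largest standard errors were those of PSMB3, PSMG2, PSMG1 and PSMG3 (0.24, 0.22, 0.21 and 0.21 log2).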
